A study of Mus musculus with 12 samples.

Results

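The interferon response genes examined here are 35 of the 49315 genes in a read count table of mouse lymphocytes and eosinophils cultured apart or together. They were taken by name, through the symbol that the GENCODE M21 annotation gives to each Ensembl identifier, and all 35 were found. They comprise 4 interferon receptor chains (Ifnar1, Ifnar2, Ifngr1 and Ifngr2), 4 transcription factors (Stat2, Irf7, Irf8 and Irf9) and 4 sensors of foreign nucleic acid (Ifih1, Ddx58, Zbp1 and Eif2ak2). The other 23 are genes that interferon induces, most of them antiviral.

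Interferons are cytokines that warn cells of infection. Type I interferons bind the IFNAR1 and IFNAR2 chains and interferon gamma binds IFNGR1 and IFNGR2, and the receptors act through Janus kinases on STAT proteins. STAT2 and IRF9 are parts of a complex that binds the interferon-stimulated response element in the promoters of antiviral genes. Both kinds of interferon are known to restrain group 2 innate lymphoid cells (ILC2s), tissue lymphocytes without antigen receptors that make type 2 cytokines. Eosinophils, granulocytes of type 2 immunity, also carry interferon receptors.

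The labels set the question of what each of the cells does when the other is present, and give 4 groups of 3 libraries, all from C57BL/6 mice. Lung ILC2s were expanded with IL-25 and IL-33 alongside IL-7 and IL-2, then held for 48 h in IL-2 and IL-7, and blood eosinophils, the cells that B220 and CD90 beads did not retain, were held for 24 h in IL-33. After washing, each was cultured without cytokines for 24 h, either alone or with the other cell, and the cells were parted by flow cytometry before RNA was extracted. Every eosinophil in the study had met IL-33, and every ILC2 the 4 cytokines, so no group shows either cell without them. The labels do not say whether replicates came from separate animals or cultures, so the p-values measure the spread between these libraries, which may be technical.

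Library totals ran from 16769929 to 22928961 counts. Levels are given as CPM (a gene's counts against library size, scaled by TMM over the 12 libraries), in the order of replicates 1, 2 and 3, and as mean ± SD with n = 3. Whether the libraries of compared groups overlapped is given for single genes as a description only. The share of all genes whose groups did not overlap was not computed. A library count of 3, below which a gene was taken as not detectable, corresponded to 0.105 to 0.201 CPM. The eosinophil and ILC2 markers matched the labelled cell types. The 12 eosinophil markers summed to 2.79 to 4.27 CPM in the 6 ILC2 libraries and to 10548 to 14055 CPM in the 6 eosinophil libraries. The sum over 12 ILC2 markers, among them the IL-33 receptor gene that eosinophils share, was 6460 to 6943 CPM in ILC2s and 635 to 1025 CPM in eosinophils. Eosinophil RNA in cocultured ILC2s, estimated as the median of 11 eosinophil markers relative to cocultured eosinophils, was 0.0313% ± 0.00609 against 0.0323% ± 0.0225 in ILC2s alone. ILC2 RNA in cocultured eosinophils, from 8 markers, was 0.0695% ± 0.0287 against 0.116% ± 0.0396 in eosinophils alone. An exact two-sided permutation test of cocultured against lone cells gave p = 1 for ILC2s and 0.3 for eosinophils, where 0.1 is the smallest that 3 against 3 can give. With markers chosen widely from the lone cells the shares were 0.0951% against 0.0786% in lone ILC2s and 0.316% against 0.383% in lone eosinophils (exact permutation p = 0.2 and 0.1). Eosinophils cultured alone, replicate 2, stood apart from the other libraries of its group, with a chi-square per degree of freedom of 13.9 and 19.5 against them, where the lowest value between replicates was 2.57.

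The promoters of these genes were compared by sequence, since the genes are defined by a response that works through promoter elements. RefSeq promoter windows on GRCm38.p6, 250 bases before to 50 bases after a start site, were at hand for 28 of the 35 genes. The core of the interferon-stimulated response element, GAAA, any 2 bases and GAAA again on either strand, was present in 14 of the 28 genes (50%), against 1079 of 27025 genes overall (3.99%), a gene being counted where any of its windows held it. The gamma-activated core, TTCNNNGAA on either strand, was present in 9 of the 28 (32.1%), against 9.55% of all genes. A match is a description of letters and does not show binding. The 6 promoters below are shown because each carries the interferon-stimulated core, while in cocultured ILC2s 3 of the genes rose (Gbp3, Eif2ak2 and Bst2) and 3 fell (Gbp2, Gbp7 and Ddx58). They are written 5′ to 3′ on the strand of the gene, and capitals mark the core, which reads TTTC, 2 bases and TTTC where it lies on the opposite strand. The windows are Gbp3 at chr3:142559794-142560093, Gbp2 at chr3:142620413-142620712 and Gbp7 at chr3:142530086-142530385 on the plus strand, and Eif2ak2 at chr17:78882523-78882822, Bst2 at chr8:71537423-71537722 and Ddx58 at chr4:40239776-40240075 on the minus strand.
Gbp3: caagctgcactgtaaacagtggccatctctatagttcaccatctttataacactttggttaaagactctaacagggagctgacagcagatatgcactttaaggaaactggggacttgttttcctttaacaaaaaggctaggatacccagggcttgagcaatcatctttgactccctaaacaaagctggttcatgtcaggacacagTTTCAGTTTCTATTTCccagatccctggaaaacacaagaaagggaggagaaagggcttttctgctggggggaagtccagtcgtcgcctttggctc
Gbp2: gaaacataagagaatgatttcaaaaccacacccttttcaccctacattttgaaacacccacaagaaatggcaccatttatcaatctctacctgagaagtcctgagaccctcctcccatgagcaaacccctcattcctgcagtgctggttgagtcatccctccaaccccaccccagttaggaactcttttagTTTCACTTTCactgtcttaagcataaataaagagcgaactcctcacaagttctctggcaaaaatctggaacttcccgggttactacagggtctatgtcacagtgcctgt
Gbp7: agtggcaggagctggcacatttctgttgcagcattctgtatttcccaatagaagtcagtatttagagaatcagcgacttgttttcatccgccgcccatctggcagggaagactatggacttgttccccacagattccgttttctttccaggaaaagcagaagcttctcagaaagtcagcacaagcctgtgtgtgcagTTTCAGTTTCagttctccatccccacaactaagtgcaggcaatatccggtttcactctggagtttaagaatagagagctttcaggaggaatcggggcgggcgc
Eif2ak2: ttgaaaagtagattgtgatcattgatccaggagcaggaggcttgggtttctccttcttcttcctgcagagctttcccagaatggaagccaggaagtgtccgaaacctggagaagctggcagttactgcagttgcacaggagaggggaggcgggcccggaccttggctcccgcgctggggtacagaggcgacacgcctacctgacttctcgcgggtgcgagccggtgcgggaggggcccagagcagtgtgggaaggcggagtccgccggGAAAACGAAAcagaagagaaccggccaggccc
Bst2: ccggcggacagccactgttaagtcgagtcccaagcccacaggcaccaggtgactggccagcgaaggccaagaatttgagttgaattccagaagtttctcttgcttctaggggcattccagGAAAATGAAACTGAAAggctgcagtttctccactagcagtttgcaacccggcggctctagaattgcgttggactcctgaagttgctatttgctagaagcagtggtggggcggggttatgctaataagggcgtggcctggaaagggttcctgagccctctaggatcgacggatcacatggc
Ddx58: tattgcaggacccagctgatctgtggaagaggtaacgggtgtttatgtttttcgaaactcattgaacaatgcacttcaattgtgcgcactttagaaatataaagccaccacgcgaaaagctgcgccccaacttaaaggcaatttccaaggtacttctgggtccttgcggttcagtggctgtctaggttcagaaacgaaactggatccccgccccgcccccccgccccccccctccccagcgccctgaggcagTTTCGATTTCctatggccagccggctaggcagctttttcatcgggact

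In the 3 neighbouring guanylate-binding protein genes the core lay close to the start site, its centre at position -54.5 from it in Gbp2, -48.5 in Gbp7, and -40.5 and -34.5 in Gbp3, which has an overlapping pair. Gbp3 has another RefSeq start site (chr3:142560106-142560405), whose window holds 0 matches to the core. Bst2 also has an overlapping pair, at -125.5 and -119.5, whereas the single matches of Eif2ak2 and Ddx58 lay 22.5 and 6.5 bases after it. Among genes with a promoter window, the core was present in 4 of 7 that rose in cocultured ILC2s (57.1%) and in 6 of 13 that fell (46.2%). For eosinophils the counts were 4 of 6 that rose with ILC2s (66.7%) and 0 of 2 that fell.

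The 35 genes covered a wide range of levels. In each group, 15 to 18 of them had a mean of at least 10 CPM and 8 to 12 a mean below 1 CPM. A set of 6 classical interferon-induced genes, Ifit1, Ifit3, Oas2, Oasl1, Mx2 and Ifi44, stayed below 1 CPM in all 4 groups. Over the 3 libraries of a group these gathered between 0 counts (Mx2 in lone eosinophils) and 48 counts (Ifit1 in lone ILC2s). Mx2 encodes an antiviral GTPase that is annotated as a polymorphic pseudogene in GENCODE M21. These genes were tested in no coculture comparison, because their counts did not pass the filter on low counts.

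**Figure D1:**
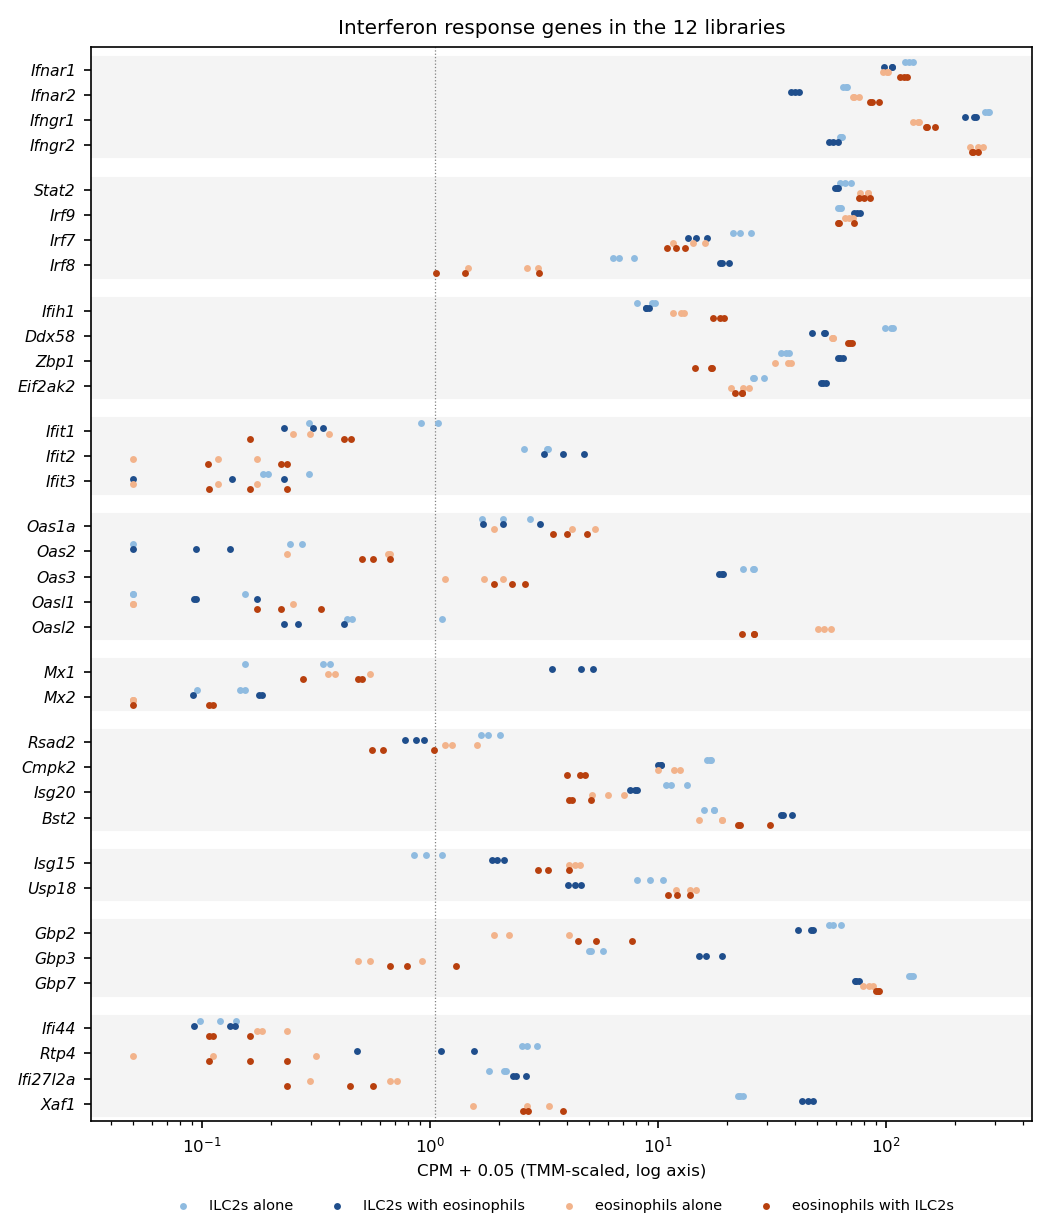
CPM (plus 0.05, log axis) of the 35 interferon response genes in each of the 12 libraries, 1 point per library, coloured by group and ordered by role, with a dotted line at 1 CPM. The receptor genes lie at 38.1 CPM or more in every library, whereas Ifit1, Ifit3, Oas2, Oasl1, Mx2 and Ifi44 have means to the left of the line in all 4 groups.

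Per length of transcript, a receptor chain for interferon gamma ranked first in every group. In lone ILC2s the highest of the 35 was Ifngr1, the ligand-binding chain for interferon gamma, at 97.7 ± 2.00 RPKM (CPM per kilobase of exon), followed by Gbp2 at 23.6 ± 1.49 and Gbp7 at 22.9 ± 0.494. Gbp2 and Gbp7 lay within 1 SD of each other. In lone eosinophils the order began with Ifngr2, the signalling chain of the same receptor, at 66.7 ± 4.23 RPKM, then Ifngr1 at 47.8 ± 1.37 and Ifnar2 at 22.0 ± 0.668. Bst2, which encodes the virion-tethering protein tetherin, was second in ILC2s cultured with eosinophils (40.1 ± 2.46 RPKM) and the third in eosinophils cultured with ILC2s (28.0 ± 5.30 RPKM).

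The lone cells were compared to show where each gene is expressed, although the cells also differ in tissue of origin and earlier cytokines. Of 28 genes tested, 16 were higher in ILC2s, 7 were higher in eosinophils and 5 were not called at an edgeR Benjamini-Hochberg adjusted p under 0.05. Of all 14525 genes tested, 80.7% were called, 40.8% higher in ILC2s and 39.9% higher in eosinophils, so a call alone is common here. By 2-fold or more, 9 of the 28 were higher in ILC2s and 3 in eosinophils, against 25.4% and 22.8% of all genes (48.2% in either direction). The median log2 fold change of the 28 was 0.52, against 0.027 over all genes. With library totals in place of TMM the median of all genes moved to 0.60 and 70.1% of calls were higher in ILC2s, where 50.5% were with TMM, so small differences between the cell types depend on the scaling.

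The chains of the receptor for interferon gamma differed in opposite directions between the cells, with both chains expressed in both cells. Ifngr1 stood at 283, 279 and 272 CPM in lone ILC2s and 139, 132 and 137 CPM in lone eosinophils (log2 fold change 1.04 ± 0.055, adjusted p = 1.24e-10). Ifngr2 was the other way round, at 62.5, 64.0 and 63.4 CPM in the lymphocytes and 253, 234 and 266 CPM in the granulocytes (log2 fold change -1.98 ± 0.061, adjusted p = 1.94e-13). For both chains the libraries of the cells did not overlap. The receptor chains for type I interferon differed little, with a log2 fold change of 0.34 ± 0.059 for Ifnar1 and -0.13 ± 0.060 for Ifnar2, the latter not called (adjusted p = 0.0515) and at 0.44 with library totals.

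The GTPase and 2-5A synthetase families included genes that were much higher in 1 of the cells. The 3 guanylate-binding protein genes of the set, whose products attack vacuoles that hold microbes, were higher in ILC2s. Gbp2 was at 59.3 ± 3.76 against 2.68 ± 1.17 CPM (log2 fold change 4.49 ± 0.16, adjusted p = 1.17e-12). The log2 fold change was 3.13 ± 0.29 for Gbp3 and 0.63 ± 0.062 for Gbp7. Outside the set this family was mixed. Gbp9 was higher in eosinophils, at 91.2 ± 7.51 against 49.95 ± 1.46 CPM in ILC2s (log2 fold change -0.86 ± 0.073, adjusted p = 3.97e-08). Gbp6 and Gbp11 were higher in ILC2s (log2 fold changes 10.6 ± 0.28 and 7.94 ± 0.94). Oas3, an enzyme that makes the activator of RNase L, averaged 25.4 ± 1.55 CPM in lone ILC2s against 1.61 ± 0.463 CPM in lone eosinophils (log2 fold change 3.98 ± 0.16, adjusted p = 6.41e-12). Oasl2, a relative of those enzymes, was almost all in eosinophils, with 50.4, 57.4 and 53.6 CPM there and 0.384, 0.406 and 1.08 CPM in ILC2s (log2 fold change -6.32 ± 0.19, adjusted p = 1.62e-13). The log2 fold change of Oasl2 was -7.05 without ILC2s cultured alone, replicate 3. Xaf1, which encodes an inhibitor of XIAP, averaged 22.9 ± 0.615 CPM in lone ILC2s against 2.45 ± 0.900 CPM in lone eosinophils (log2 fold change 3.23 ± 0.18, adjusted p = 2.46e-10). Isg15, a ubiquitin-like modifier, was higher in eosinophils, at 4.26 ± 0.244 against 0.932 ± 0.140 CPM (log2 fold change -2.19 ± 0.26, adjusted p = 1.92e-06). Ifit2, Rtp4 and Ifi27l2a were also higher in ILC2s, and in lone eosinophils Ifit2 gathered 3 counts and Rtp4 5 counts over the 3 libraries. The other genes higher in ILC2s were Irf7, Irf8, Ddx58, Eif2ak2, Cmpk2 and Isg20, with log2 fold changes from 0.24 (Eif2ak2) to 1.59 (Irf8). The other genes higher in eosinophils were Stat2, Ifih1, Usp18 and Oas1a, from -0.27 (Stat2) to -0.82 (Oas1a), and with library totals none of these 4 was called higher there. Irf9, Zbp1, Rsad2 and Bst2 were not called.

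**Figure D2:**
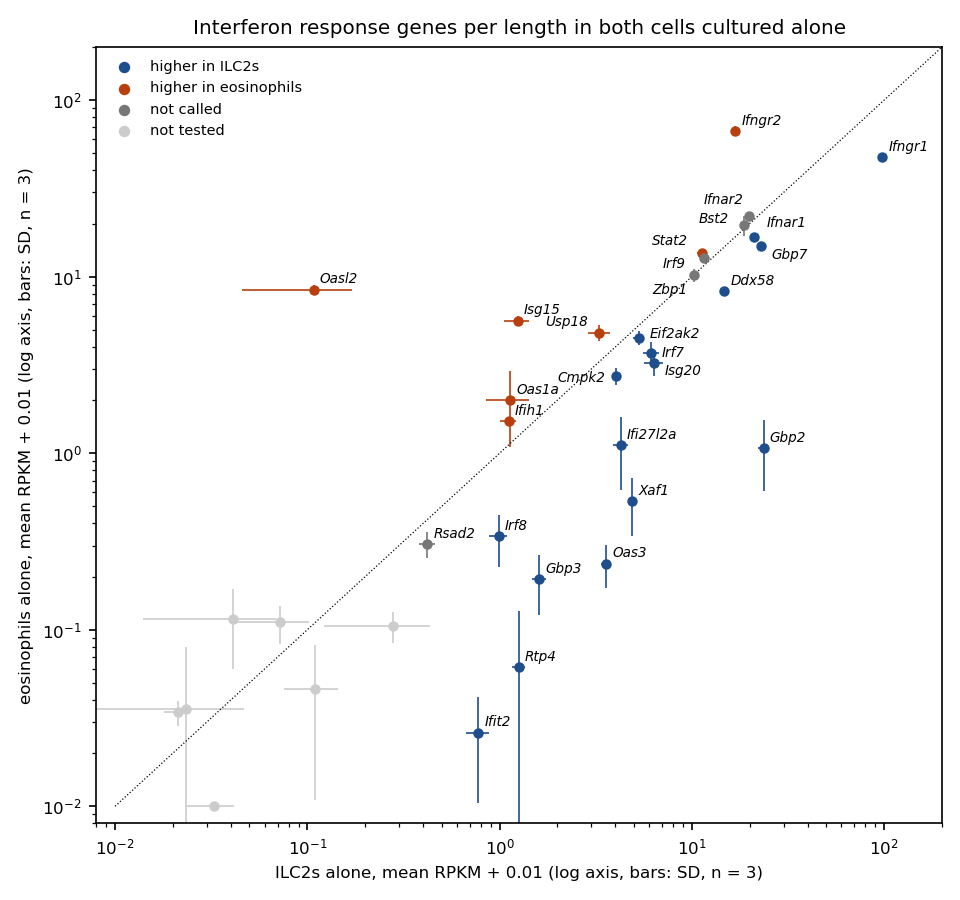
Mean RPKM (plus 0.01, log axes, bars SD, n = 3) of each interferon response gene in ILC2s cultured alone (horizontal) and eosinophils cultured alone (vertical), coloured by the edgeR call. Oasl2 and Ifngr2 lie above the dotted line of equal levels and Gbp2, Oas3, Gbp3 and Xaf1 below it.

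When ILC2s were cultured with eosinophils, the interferon response genes moved in both directions. Of 28 genes tested, 9 rose, 15 fell, 4 were not called and the other 7 of the 35 were not tested. Of all 14438 genes tested, 72.4% were called (36.8% higher and 35.6% lower), so that most genes of these cells were called. By 2-fold or more, 5 of the 28 rose and 4 fell, where 14.0% of all genes rose and 9.89% fell (23.9% in either direction). The median log2 fold change was -0.13 over the 28 genes and 0.003 over all genes. With library totals the median of all genes lay at -0.15, and 40.9% of calls were higher against 50.8% with TMM. In bulk libraries, fewer cells with a transcript and less of it in each cell cannot be told apart.

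The largest rise was that of Mx1 (ENSMUSG00000000386, chr16:97447035-97462907), an antiviral GTPase gene that is defective in C57BL/6 mice. Mx1 stood at 0.288, 0.315 and 0.105 CPM in ILC2s alone, 16 counts in all, and at 4.55, 5.15 and 3.37 CPM beside eosinophils, 305 counts in all (log2 fold change 4.24 ± 0.33, adjusted p = 2.98e-12). Its 3 cocultured libraries lay well above the lone ones. Mx1 in eosinophils, 0.334, 0.308 and 0.495 CPM alone and 0.433, 0.450 and 0.228 CPM with ILC2s, was below every cocultured ILC2 library and was not tested there.

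All 4 receptor genes were called lower in cocultured ILC2s. Ifnar2 (chr16:91372783-91405589) fell from 67.6, 66.6 and 64.7 CPM to 41.3, 39.7 and 38.1 CPM (log2 fold change -0.75 ± 0.053, adjusted p = 3.00e-13), the steepest fall of the 4. Ifnar1 (chr16:91485238-91507441) fell from 125, 121 and 131 CPM to 97.8, 106 and 106 CPM (log2 fold change -0.29 ± 0.044, adjusted p = 8.92e-07). Ifngr1 (chr10:19591949-19610229) fell from 283, 279 and 272 CPM to 221, 243 and 248 CPM (log2 fold change -0.24 ± 0.042, adjusted p = 1.15e-05). For these 3 chains every cocultured library was below every lone one. Ifngr2 (chr16:91547072-91565623), which lies beside both Ifnar genes, moved from 62.5, 64.0 and 63.4 CPM to 58.5, 56.4 and 61.4 CPM (log2 fold change -0.11 ± 0.050, adjusted p = 0.0411), and its call was lost in 7 of 13 alternative analyses (0.132 with DESeq2). Of the exon bases of Ifnar2, 9.46% are shared with another gene model on the same strand, so some of its reads may be counted elsewhere.

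The transcription factors divided evenly. Irf8, which drives myeloid and dendritic cell fates and also interferon genes, rose from 6.29, 7.75 and 6.67 CPM to 20.5, 18.6 and 19.1 CPM (log2 fold change 1.48 ± 0.10, adjusted p = 1.74e-13). Irf9, the DNA-binding partner of STAT2, rose from 62.5, 61.4 and 63.2 CPM to 74.3, 76.6 and 72.2 CPM (log2 fold change 0.24 ± 0.047, adjusted p = 3.53e-05). In both, the cocultured libraries were all above the lone ones, but Irf9 was not called with library totals (adjusted p = 0.0942). Irf7, which amplifies type I interferon production, fell from 25.5, 21.3 and 22.9 CPM to 13.4, 16.3 and 14.7 CPM (log2 fold change -0.66 ± 0.090, adjusted p = 1.84e-07). Stat2 moved from 63.0, 66.0 and 70.4 CPM to 61.7, 60.8 and 59.9 CPM (log2 fold change -0.14 ± 0.051, adjusted p = 0.0160), and 6 of 13 alternatives ended its call (0.0644 with DESeq2). Irf8 and Bst2 are also among 9 markers of plasmacytoid dendritic cells, whose summed level was 127 to 135 CPM in lone and 129 to 138 CPM in cocultured ILC2s. Of the 5 markers tested, Irf8 and Bst2 rose while Tcf4 (22.4 ± 0.765 to 13.6 ± 0.805 CPM) and Runx2 (83.1 ± 4.93 to 63.4 ± 2.17 CPM) fell. Of the markers not tested, Siglech had 7 counts in lone and 1 in cocultured ILC2s, and Klk1 and Cox6a2 had 0 counts in lone ILC2s.

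The nucleic acid sensors also moved apart. Ddx58 (ENSMUSG00000040296, chr4:40203773-40239828) encodes RIG-I, which detects viral RNA, and fell from 107, 98.5 and 105 CPM to 47.3, 53.5 and 53.7 CPM (log2 fold change -1.02 ± 0.051, adjusted p = 1.06e-16). Zbp1, a sensor of Z-form nucleic acid that can start necroptosis, rose from 34.6, 37.5 and 36.5 CPM to 61.7, 62.6 and 64.5 CPM (log2 fold change 0.79 ± 0.055, adjusted p = 1.60e-13). Eif2ak2 encodes PKR, which halts translation on double-stranded RNA, and rose from 27.1 ± 1.73 to 52.8 ± 1.33 CPM (log2 fold change 0.96 ± 0.062, adjusted p = 2.80e-14). None of these 3 genes had libraries that overlapped between the groups. Ifih1, which encodes the related sensor MDA5, was at 9.01 ± 0.871 and 8.87 ± 0.159 CPM and was not called (adjusted p = 0.783).

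Among the antiviral effectors, Bst2 stood out by its rise. Bst2 went from 17.5, 15.9 and 17.5 CPM to 34.5, 35.4 and 38.7 CPM (log2 fold change 1.09 ± 0.075, adjusted p = 1.35e-13). Rsad2, which encodes viperin, fell from 1.97, 1.62 and 1.75 CPM to 0.723, 0.887 and 0.821 CPM (log2 fold change -1.14 ± 0.30, adjusted p = 0.00121). Its neighbour Cmpk2, a nucleotide kinase gene, fell from 16.7 ± 0.336 to 10.2 ± 0.149 CPM (log2 fold change -0.73 ± 0.093, adjusted p = 5.57e-08). Isg20, an exonuclease gene, fell by a log2 fold change of -0.60 ± 0.11, and Oas3 by -0.43 ± 0.077. Oas1a, another synthetase gene, was at 2.12 ± 0.529 and 2.23 ± 0.689 CPM and Ifit2, an inhibitor of translation, at 3.00 ± 0.409 and 3.86 ± 0.784 CPM, and neither was called, although Ifit2 was without ILC2s cultured with eosinophils, replicate 3 (adjusted p = 0.0388). Oasl2, abundant in eosinophils, gathered 48 counts in lone and 18 counts in cocultured ILC2s and was not tested.

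ISG15 and the protease that removes it moved against each other. Isg15 rose from 0.912, 1.08 and 0.803 CPM to 1.91, 1.82 and 2.05 CPM (log2 fold change 1.05 ± 0.28, adjusted p = 0.00161). Usp18, which takes ISG15 off its targets and dampens IFNAR2 signalling, fell from 8.02, 10.4 and 9.15 CPM to 4.55, 4.26 and 3.98 CPM (log2 fold change -1.12 ± 0.14, adjusted p = 2.88e-08). Neither gene had overlapping groups, and Isg15 remained a low gene even beside eosinophils.

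The 3 guanylate-binding protein genes, neighbours on chromosome 3, took opposite directions in the same cells. Gbp3 (chr3:142560026-142573209) rose from 4.94, 5.00 and 5.69 CPM to 16.2, 19.0 and 15.0 CPM (log2 fold change 1.66 ± 0.12, adjusted p = 2.18e-13). Gbp7 (chr3:142530342-142550149) fell from 126, 131 and 129 CPM to 72.8, 76.3 and 73.7 CPM (log2 fold change -0.80 ± 0.042, adjusted p = 2.64e-16). Gbp2 (chr3:142620602-142638008) fell from 63.4, 58.7 and 55.9 CPM to 41.1, 47.6 and 46.9 CPM (log2 fold change -0.40 ± 0.060, adjusted p = 1.09e-06). In each, the cocultured libraries lay wholly on 1 side of the lone ones. The promoters printed above show the interferon-stimulated core near a start site of all 3, in Gbp3 at only 1 of 2 start sites. These genes are close copies of each other, so the split of reads among them is uncertain, and 11.4% of the exon bases of Gbp7 are shared with another gene model.

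Of the remaining induced genes, Xaf1 rose from 22.9 ± 0.615 to 45.4 ± 2.53 CPM (log2 fold change 0.98 ± 0.065, adjusted p = 7.22e-14). Rtp4, which encodes a receptor transporter induced by interferon, fell from 2.88, 2.48 and 2.62 CPM to 0.426, 1.51 and 1.07 CPM (log2 fold change -1.42 ± 0.30, adjusted p = 1.19e-04). Of the exon bases of Rtp4, 13.9% are shared with another gene model. Ifi27l2a was not called at 1.97 ± 0.187 and 2.39 ± 0.165 CPM.

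**Figure D3:**
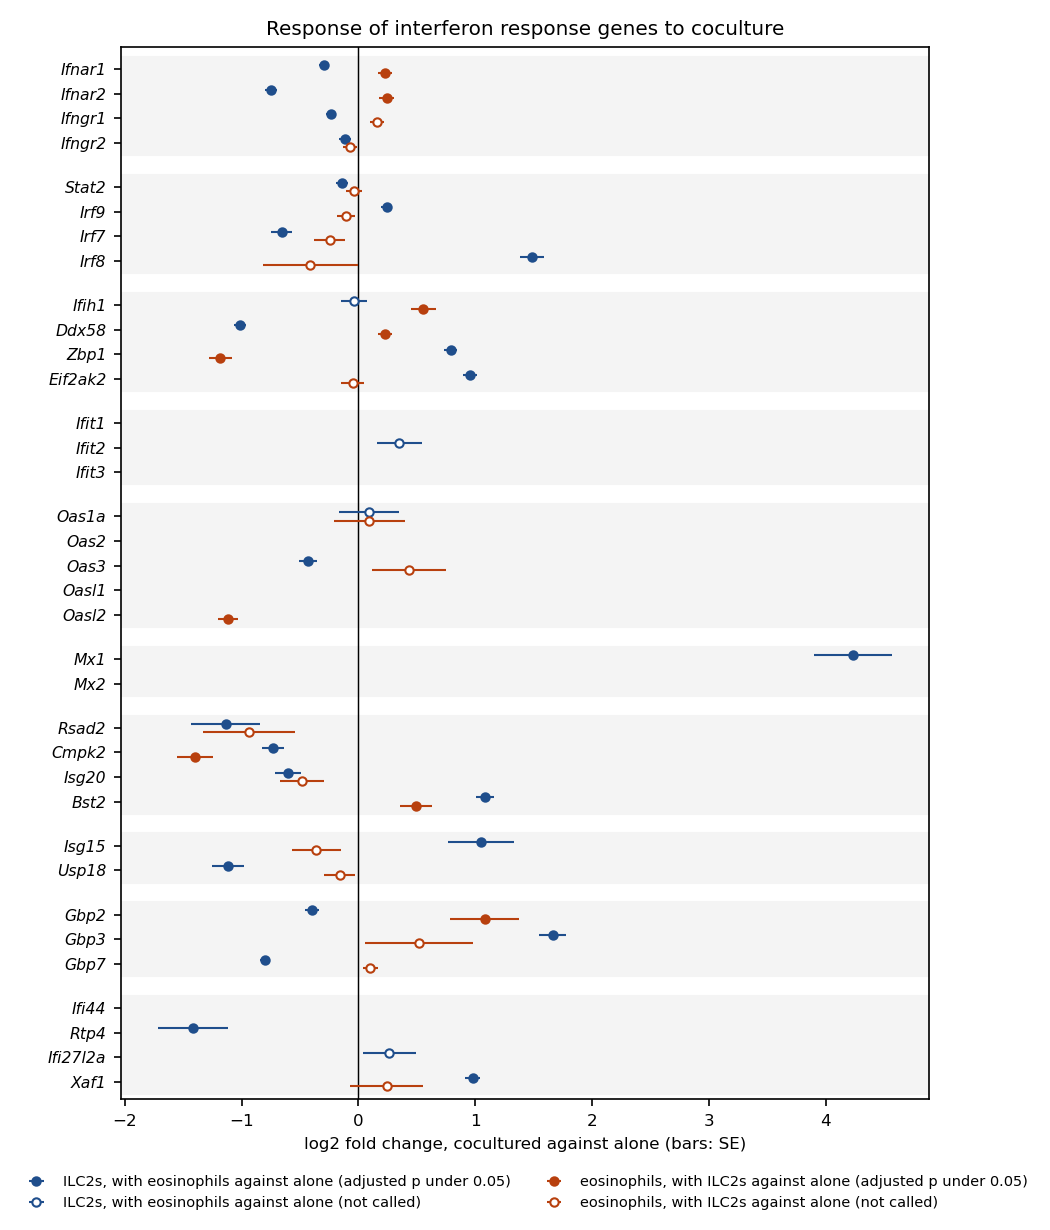
The log2 fold change (bars SE) of each tested interferon response gene in cocultured against lone ILC2s (blue) and cocultured against lone eosinophils (orange), filled where the edgeR adjusted p was under 0.05 and open where it was not. Mx1 in ILC2s lies farthest to the right at 4.24, and Ifnar1, Ifnar2, Ddx58, Gbp2 and Zbp1 have filled points on opposite sides of 0.

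Eosinophils cultured with ILC2s showed fewer calls. Of 25 genes tested, 6 rose, 3 fell, 16 were not called and the other 10 of the 35 were not tested. Of all 13109 genes, 24.9% were called, 11.4% higher and 13.5% lower. By 2-fold or more, 1 of the 25 rose and 3 fell, where 1.15% of all genes rose and 4.61% fell (5.76% in either direction). The median log2 fold change was -0.040 over the 25 genes and 0.004 over all genes. The count of rises depended on single libraries: it was 2 without eosinophils cultured with ILC2s, replicate 1, and 3 without eosinophils cultured alone, replicate 1. With library totals 58.0% of all calls were higher, against 45.7% with TMM.

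The 3 genes that fell were the steepest changes among the 25. Oasl2 (ENSMUSG00000029561, chr5:114896936-114912234) fell from 50.4, 57.4 and 53.6 CPM in lone eosinophils to 26.4, 26.4 and 23.2 CPM with ILC2s (log2 fold change -1.12 ± 0.085, adjusted p = 4.01e-07). Zbp1 fell from 37.2, 32.4 and 38.1 CPM to 17.1, 16.9 and 14.4 CPM (log2 fold change -1.18 ± 0.10, adjusted p = 1.06e-06). Cmpk2 fell from 12.4, 9.98 and 11.7 CPM to 4.51, 3.94 and 4.72 CPM (log2 fold change -1.40 ± 0.15, adjusted p = 1.31e-05). All 3 had groups that did not overlap, and all 3 were called in every alternative analysis. Rsad2, the neighbour of Cmpk2, went from 1.20, 1.11 and 1.55 CPM to 0.989, 0.506 and 0.569 CPM and was not called (log2 fold change -0.94 ± 0.40, adjusted p = 0.108).

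The genes that rose mostly did so by less. Gbp2 was the only one of the 6 past 2-fold, going from 4.01, 1.85 and 2.17 CPM to 7.60, 4.39 and 5.29 CPM (log2 fold change 1.08 ± 0.30, adjusted p = 0.0161), and its call was lost without eosinophils cultured with ILC2s, replicate 1 (0.0917). ILC2s held more of this transcript than eosinophils. At the share from widely chosen markers, ILC2 RNA would bring 0.159 CPM of it to cocultured eosinophils, on library totals. The part of ILC2 RNA in the change was not tested. The highest lone value of Gbp2, 4.01 CPM, was near the lowest cocultured one, 4.39 CPM. Ifih1 rose from 12.9, 11.5 and 12.6 CPM to 19.5, 18.7 and 17.4 CPM (log2 fold change 0.56 ± 0.11, adjusted p = 0.00160) and was called in every alternative. Bst2 rose from 18.9, 15.0 and 19.1 CPM to 22.4, 22.7 and 30.8 CPM (log2 fold change 0.49 ± 0.14, adjusted p = 0.0174), a call lost without eosinophils cultured with ILC2s, replicate 3 (0.109). Ddx58 rose from 57.8, 58.3 and 58.1 CPM to 70.5, 69.7 and 68.1 CPM (log2 fold change 0.23 ± 0.063, adjusted p = 0.0166), and leaving out eosinophils cultured alone, replicate 1, or eosinophils cultured with ILC2s, replicate 1 or 2, ended the call (0.0679, 0.0636 and 0.0523). For Ifih1 and Ddx58 each cocultured library exceeded each lone one.

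The receptor genes of eosinophils were higher or not called. Ifnar1 rose from 96.6, 101 and 101 CPM to 123, 120.2 and 115 CPM (log2 fold change 0.23 ± 0.060, adjusted p = 0.0118). Ifnar2 rose from 72.0, 71.7 and 75.7 CPM to 93.3, 85.2 and 86.5 CPM (log2 fold change 0.24 ± 0.064, adjusted p = 0.0129). Both had groups that did not overlap, and both lost their call without replicate 1 of either group, with adjusted p from 0.0607 to 0.0748. Ifngr1 was at 139, 132 and 137 CPM and 151, 149.8 and 164 CPM and was not called (log2 fold change 0.16 ± 0.060, adjusted p = 0.0717), but was with library totals (0.017). Ifngr2 stood at 253, 234 and 266 CPM and 241, 238 and 253 CPM, with groups that overlapped (adjusted p = 0.453).

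None of the 4 transcription factor genes was called in eosinophils by edgeR, in any of the alternatives run. Stat2 was at 82.9, 83.0 and 76.5 CPM alone and 79.7, 84.6 and 76.2 CPM with ILC2s, and Irf9 at 71.5, 69.0 and 65.9 CPM and 72.4, 62.2 and 61.7 CPM. Irf7 was at 14.1, 11.6 and 16.0 CPM and 13.0, 10.9 and 11.9 CPM, and Irf8 at 2.61, 1.42 and 2.91 CPM and 2.97, 1.01 and 1.37 CPM. All 4 had overlapping groups, and 0 of the 4 had an unadjusted p under 0.05 (lowest 0.0912, for Irf7), with adjusted p from 0.219 for Irf7 to 0.730 for Stat2. The other genes not called were Eif2ak2, Oas1a, Oas3, Rsad2, Isg20, Isg15, Usp18, Gbp3, Gbp7 and Xaf1, with log2 fold changes from -0.94 (Rsad2) to 0.52 (Gbp3).

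Markers of other cells also moved between the groups. Summed over 9 neutrophil markers the level went from 331 to 360.0 CPM in lone eosinophils to 824 to 928 CPM with ILC2s, and of the 7 tested 1 rose and 3 fell. The rise was that of Retnlg, from 115 ± 17.3 to 753 ± 50.7 CPM. Over 10 basophil and mast cell markers it went from 260.2 to 290 CPM down to 127 to 135 CPM, with 0 of 6 tested rising and 4 falling, and Mcpt4 at 0 counts in both groups. The 10 monocyte and macrophage markers summed to 1132 to 1149 CPM in lone eosinophils and 1289 to 1322 CPM with ILC2s. Of the 6 tested in eosinophils, 1 rose and 2 fell, both falls by 2-fold or more. Ly6c2 was at 49.5 ± 5.80 CPM alone and 23.1 ± 1.49 CPM with ILC2s. In ILC2s the 10 monocyte and macrophage markers summed to 800 to 822 CPM alone and 418 to 512 CPM with eosinophils, a sum carried by Ccr2, which fell from 811 ± 12.7 to 453 ± 48.4 CPM. Of the 3 tested, Cx3cr1 rose from 0.644 ± 0.246 to 2.28 ± 0.360 CPM and Cd68 was not called. The 7 conventional dendritic cell markers summed to 27.1 to 33.2 and 64.7 to 73.0 CPM. Of the 3 tested, H2-Ab1 rose from 10.05 ± 1.79 to 44.6 ± 1.74 CPM and Xcr1 from 19.1 ± 1.26 to 22.8 ± 3.87 CPM, while Cd209a was at 0 counts in both groups. Of the 9 neutrophil markers, with sums of 0.105 to 0.384 and 1.38 to 4.43 CPM, only Mpo was tested, and it rose from 0.0417 ± 0.0454 to 2.42 ± 1.52 CPM, with S100a8 and S100a9 at 0 counts in both groups. The 7 B cell markers summed to 126 to 139 CPM in lone and 55.3 to 62.2 CPM in cocultured ILC2s. Of the 4 tested there, 2 rose and 2 fell. In eosinophils the B cell markers summed to 204 to 245 CPM alone and 252 to 283 CPM with ILC2s. Of the 4 tested there, 0 rose and 1 fell. The part of all these markers in the changes of interferon response genes was not tested.

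Whether the response differed between the cells was tested over all 12 libraries, as the ILC2 log2 fold change minus the eosinophil one. Of 30 genes tested, 10 differed upward and 10 downward, against 26.8% and 24.8% of all 15745 genes (51.5% in all). By 2-fold or more, 5 differed upward and 3 downward, against 13.6% and 8.94% of all genes (22.6% in either direction). With library totals the median difference over all genes was -0.18, where it was 0.013 with TMM.

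Both cocultures called 7 of the genes, and for 5 of these the directions were opposite. Over all genes, 1455 of 2303 called in both went opposite ways (63.2%), and the share among the 7 was 71.4%. Zbp1 rose in ILC2s and fell in eosinophils, at a difference of 1.95 ± 0.11 (adjusted p = 5.66e-13). Ddx58 fell in ILC2s and rose in eosinophils (-1.26 ± 0.086, adjusted p = 1.17e-11). So did Gbp2 (-1.50 ± 0.25, adjusted p = 2.14e-05), Ifnar2 (-1.01 ± 0.083, adjusted p = 3.77e-10) and Ifnar1 (-0.54 ± 0.077, adjusted p = 2.45e-06). Zbp1 was not called between lone ILC2s and eosinophils (log2 fold change 0.021 ± 0.080, adjusted p = 0.818), although it was called higher in ILC2s with library totals (0.59, adjusted p = 7.28e-06) and with upper-quartile factors (adjusted p = 0.00849), and it ended at 62.9 ± 1.43 and 16.2 ± 1.52 CPM. Bst2 rose in both cells, by more in ILC2s (0.57 ± 0.16, adjusted p = 0.00407), and Cmpk2 fell in both, by more in eosinophils (0.65 ± 0.17, adjusted p = 0.00232).

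Other pairs of responses also had opposite signs where 1 of the changes was not itself called. The genes were Ifngr1, Irf9, Irf8, Ifih1, Eif2ak2, Oas3, Isg15 and Gbp7. For these the test shows unequal responses, and the sign of the uncalled change is uncertain. The log2 fold change was -0.046 ± 0.098 for Eif2ak2 in eosinophils and -0.037 ± 0.11 for Ifih1 in ILC2s, both smaller than their SE. In the alternative analyses these values reached 0.0089 and 0.016. Oas3 fell from 26.4, 23.6 and 26.1 to 19.1, 19.3 and 18.4 CPM in ILC2s and was at 1.67, 2.03 and 1.11 and 2.23, 1.86 and 2.56 CPM in eosinophils, a difference of -0.88 ± 0.25 (adjusted p = 0.00403). Eif2ak2 went from 26.2, 29.1 and 26.0 to 54.2, 52.7 and 51.6 CPM in ILC2s and was at 24.9, 23.4 and 20.8 and 23.3, 21.7 and 23.3 CPM in eosinophils (0.98 ± 0.11, adjusted p = 9.05e-08). Isg15 was at 4.01, 4.50 and 4.27 and 4.02, 2.93 and 3.24 CPM in eosinophils, beside its rise in ILC2s (1.39 ± 0.33, adjusted p = 0.00115). Gbp7 was at 84.4, 87.1 and 79.3 and 90.2, 91.9 and 92.7 CPM in eosinophils, beside its fall in ILC2s (-0.92 ± 0.075, adjusted p = 3.26e-10). For Ifih1 the call was in eosinophils and not in ILC2s, whose libraries held 8.02, 9.37 and 9.64 CPM alone and 8.77, 9.05 and 8.79 CPM with eosinophils (-0.61 ± 0.15, adjusted p = 0.00169).

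The rest of the pathway was described from lists of related genes. Interferons themselves were close to absent: over 21 ligand genes and all 12 libraries there were 45 counts, at most 8 for 1 gene in a library, and 8 of the genes had 0 counts throughout. Ifng had 1 count in lone ILC2s, 8 in cocultured ILC2s, 1 in lone eosinophils and 2 in cocultured eosinophils, and Ifnb1 had 2, 0, 0 and 3. None passed the filter on low counts in any comparison.

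Of 16 genes of interferon signalling and its inhibitors, 15 were tested in each coculture, and in ILC2s 6 rose and 6 fell (80% called, near the 72.4% of all genes). The suppressors of cytokine signalling, which block Janus kinases, went opposite ways in the cells. Socs3 rose from 2.95 ± 0.256 to 120.3 ± 11.5 CPM in ILC2s (log2 fold change 5.34 ± 0.088, adjusted p = 3.69e-28) and fell from 139.8 ± 1.24 to 46.8 ± 3.01 CPM in eosinophils (log2 fold change -1.61 ± 0.066, adjusted p = 8.75e-10). Socs1 rose from 25.2, 20.8 and 22.9 to 59.8, 69.7 and 60.1 CPM in ILC2s (log2 fold change 1.45 ± 0.070, adjusted p = 3.03e-17). In eosinophils Socs1 fell from 429.6, 414 and 504 to 147, 132 and 119 CPM (log2 fold change -1.79 ± 0.085, adjusted p = 3.90e-09). The responses differed by 3.22 ± 0.12 for Socs1 (adjusted p = 2.86e-16) and 6.92 ± 0.12 for Socs3 (adjusted p = 7.94e-23).

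Irf1, an activator of interferon-induced genes, fell from 161, 158 and 162 to 90.9, 94.7 and 96.3 CPM in ILC2s (log2 fold change -0.78 ± 0.040, adjusted p = 1.66e-16) and rose from 123, 109.7 and 124 to 155, 131 and 139 CPM in eosinophils (log2 fold change 0.23 ± 0.073, adjusted p = 0.0377). The difference between the responses was -1.02 ± 0.087 for Irf1 (adjusted p = 6.94e-10). In ILC2s Ptpn1, a phosphatase gene, rose (1.36 ± 0.045) while Pias1 and Tyk2 fell (-0.51 ± 0.056 and -0.37 ± 0.038). In eosinophils 4 genes of the list rose and 6 fell (66.7% called, beside 24.9% of all genes), with Jak1 among the rises (0.29 ± 0.061) and Ptpn2, another phosphatase gene, among the falls (-0.65 ± 0.066).

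Of 17 genes of the sensing pathways that induce interferon, 13 were tested in ILC2s, where 4 rose and 6 fell (76.9% called, also near the share of all genes). Myd88, the Toll-like receptor adaptor, rose (1.44 ± 0.046), as did Mb21d1, which encodes the DNA sensor cGAS (1.20 ± 0.11), and Ticam1 (0.60 ± 0.071). The lowest were Irf5 (-0.95 ± 0.10), Ikbke (-0.80 ± 0.044) and Unc93b1 (-0.64 ± 0.067). In eosinophils 14 were tested, of which 3 rose and 4 fell (50% called, beside 24.9% of all genes). Tmem173, which encodes STING, rose (0.85 ± 0.097), and so did Unc93b1, which carries Toll-like receptors to endosomes (0.63 ± 0.066), and Traf3 (0.36 ± 0.067). Tlr9, a receptor for bacterial DNA, fell from 11.8 ± 1.14 to 3.82 ± 0.492 CPM (-1.66 ± 0.16), and Tlr4 and Irf5 fell by less (-0.48 ± 0.12 and -0.48 ± 0.072).

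Among 58 other interferon-induced genes, 48 were tested in ILC2s, of which 11 rose and 30 fell, beside 36.8% higher and 35.6% lower over all genes. Their median log2 fold change was -0.32 against 0.003 over all genes, both with TMM. Library totals, which shift all genes together, put the all-gene median at -0.15, and the median of this list was not computed with them. The list was chosen with earlier results of these data known, so its excess of falls is a description only. The rises were led by Ifitm3 and Ifitm2, which encode membrane proteins that hinder virus entry, at 3.18 ± 0.25 and 2.46 ± 0.11, and by Phf11b at 1.96 ± 0.10. Ifi203, of the family of DNA sensors with a pyrin domain, fell from 215 ± 5.94 to 56.3 ± 5.40 CPM (-1.94 ± 0.050), and Apol9a and Apol9b fell by -2.86 ± 0.45 and -2.34 ± 0.19. In eosinophils 42 were tested, of which 6 rose and 9 fell (35.7% called, beside 24.9% of all genes). Ifitm1 fell from 44.2 ± 1.91 to 13.5 ± 0.457 CPM (-1.74 ± 0.087) and Samd9l from 517 ± 69.6 to 219.6 ± 9.77 CPM (-1.27 ± 0.089), with Ube2l6, the conjugating enzyme for ISG15, at -1.37 ± 0.32. Epsti1, Parp12 and Lgals9 led the rises (0.77 ± 0.13, 0.62 ± 0.11 and 0.61 ± 0.067).

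Of 30 GTPase and antigen presentation genes that interferon gamma induces, 27 were tested in ILC2s, with 11 rises and 10 falls (77.8% called, beside 72.4% of all genes). B2m, the light chain of MHC class I, rose from 1716 ± 18.9 to 2879 ± 98.3 CPM (0.74 ± 0.034), Psmb8, an immunoproteasome subunit gene, by 0.61 ± 0.038, and Gbp5 by 0.87 ± 0.099. The lowest values were those of the GTPase genes Tgtp1 (-1.29 ± 0.092), Tgtp2 (-1.28 ± 0.052) and Gbp8 (-1.16 ± 0.049). In eosinophils 21 were tested, with 4 rises and 3 falls (33.3% called, beside 24.9% of all genes), the falls being Gbp8, Gbp4 and Gbp9 (-1.24 ± 0.28, -1.22 ± 0.32 and -0.73 ± 0.076). Irgm2, Psmb10 and Tapbp were the 3 highest rises (0.40 ± 0.086, 0.38 ± 0.095 and 0.22 ± 0.061).

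**Figure D4:**
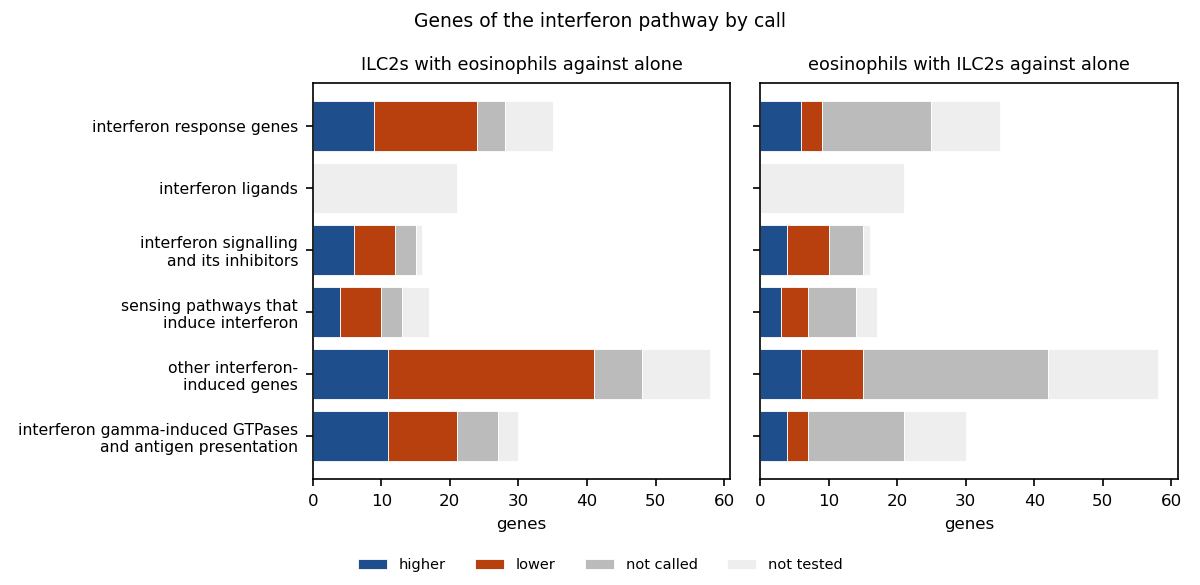
Number of genes (horizontal) of the 35 interferon response genes and of 5 lists of related genes that were higher, lower, not called or not tested in cocultured against lone ILC2s (left) and eosinophils (right). Falls outnumber rises among the other interferon-induced genes in ILC2s (30 against 11), and no interferon ligand was tested.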

How the data were processed

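Total RNA libraries (NEBNext Ultra II kit, per the labels' protocols) were sequenced from 12 samples of mouse cells in 4 groups of 3. The authors deposited whole-number read counts per gene for 49315 Ensembl identifiers, not normalized. Tools listed in the submitters' processing notes, without roles, are Subread 1.5.2, featureCounts, STAR 2.5.2b, Trimmomatic 0.36 and bcl2fastq 2.17, and the build is mm10. Which annotation was used, whether strand was used and how reads with several matches were treated are points not given in the sources used here, so overlapping genes and close copies (Gbp, Oas1a, Ifit1, Ifit3 and Ifi27l2a families) are uncertain.

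The genes and the lists of related genes were chosen with earlier results of these data known. GENCODE M21 gave symbols, positions and exon lengths (49056 identifiers matched). Fits were made with edgeR 4.0.16 in R 4.3.3 (filterByExpr with a minimum count of 10 and minimum total of 15, TMM, quasi-likelihood F test, no covariates) on the 6 libraries of a comparison, or on all 12 for the difference of responses. Genes at a Benjamini-Hochberg adjusted p under 0.05, over all genes tested, were called, and the SE was the log2 fold change divided by the square root of F. The fits were also run on simulated counts in which few genes changed, unlike these data. That run therefore does not bear on the scaling where most genes are called. For partner RNA shares, CPM came from library totals, and a marker needed 10 CPM in the partner and no more than 1% of that level in lone cells. The floor of 3 counts covers counting error only.

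Values per library are given for genes called in a coculture with at least 2-fold change and 1 CPM, for those whose responses differed with opposite signs, and for receptors and transcription factors. Related lists give up to 3 highest and 3 lowest called genes, and Irf1, Socs1 and the ligands always. A gene of these lists is not reported here. Alternatives were DESeq2 1.42.0, other scalings, no filter, a replicate block, a fit of all 12 libraries, each library left out, and leaving out genes higher in the partner cell. Replicate numbers were not used to pair libraries in the main fits (same-number correlations of deviations from -0.027 to 0.175). No column lay outside the sample mapping.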

Additional observations from a re-analysis of the deposited data

Results flagged for a closer look

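For 20 interferon response genes the coculture response differed between ILC2s and eosinophils by the edgeR interaction test over all 12 libraries (Benjamini-Hochberg adjusted p under 0.05). The difference is the ILC2 log2 fold change minus the eosinophil one. It was positive for Mx1 (4.27, from few counts in eosinophils), Zbp1 (1.95), Irf8 (1.88), Isg15 (1.39) and Gbp3 (1.12). Smaller positive differences were those of Eif2ak2 (0.98), Xaf1 (0.72), Cmpk2 (0.65), Bst2 (0.57) and Irf9 (0.33). It was negative for Gbp2 (-1.50), Ddx58 (-1.26), Ifnar2 (-1.01), Usp18 (-0.98) and Gbp7 (-0.92). The other negative differences were those of Oas3 (-0.88), Ifih1 (-0.61), Ifnar1 (-0.54), Irf7 (-0.43) and Ifngr1 (-0.42). Of these, Irf9, Irf7, Gbp3 and Xaf1 were not called in every alternative analysis.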

How the results depend on the processing

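Of the interferon response genes called, 21 of 24 in cocultured ILC2s, 4 of 9 in cocultured eosinophils, 18 of 23 between the lone cells and 16 of 20 in the difference of responses were called in every alternative. The matching share over all called genes was not computed, so these counts cannot be called particular to interferon response genes. Leaving out each library in turn gave 9 to 10 rises and 13 to 16 falls in ILC2s, 2 to 6 rises and 3 to 4 falls in eosinophils, 15 to 17 genes higher and 6 to 9 lower in lone ILC2s than in eosinophils, and 8 to 10 upward and 9 to 11 downward differences of response. Over all genes the same ranges were 5144 to 5297 and 4869 to 5141 in ILC2s, 948 to 1604 and 1337 to 1923 in eosinophils (both lowest without eosinophils cultured with ILC2s, replicate 3), 5717 to 6086 and 5662 to 5875 between lone cells, and 4005 to 4271 and 3650 to 4006 for the difference. Without genes higher in the partner cell, eosinophils had 3 rises and 1 fall, fewer genes being counted. The fit of all 12 libraries called 2276 genes higher in eosinophils, where 1493 were; the cause was not tested.

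Between the lone cells, library totals left 3 of the genes and 3664 of all genes lower in ILC2s, upper-quartile factors also left 3, and with library totals Ifnar2 (0.44), Stat2 (0.30), Irf9 (0.44), Ifih1 (0.13), Bst2 (0.52) and Usp18 (0.036) reversed, while Zbp1 was called (adjusted p = 7.28e-06), each scaling shifting all genes together. In the difference of responses, library totals ended the calls of Irf9 (adjusted p = 0.225), Gbp3 (0.0691) and Xaf1 (0.0841), and leaving out 1 library ended those of Irf7 (6 libraries, 0.0582 to 0.102), Gbp3 (4 libraries, up to 0.221) and Xaf1 (4 libraries, up to 0.172). With markers chosen widely from the lone cells, the partner RNA share was 0.0951% in ILC2s and 0.316% in eosinophils (more markers, with higher background).

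With the replicate number as a block, 9 genes rose and 15 fell in ILC2s, and 7 rose and 3 fell in eosinophils, Ifngr1 being the seventh (adjusted p = 0.0193). Over all genes the block gave 2029 rises and 2139 falls in eosinophils, where the main fit gave 1493 and 1771. Same-numbered libraries did not correlate above 0.1 in every pair (0.011, 0.175 and 0.044 in eosinophils), and not every library correlated best with its own number. The main fits therefore took the numbers as names only. Whether the numbers mark pairs of eosinophil libraries cannot be told from these values. Depth limits the 6 genes below 1 CPM, which passed the count filter in no coculture (Oas2 passed it in the difference of responses, adjusted p = 0.274), and the interferon ligands, none of which passed it in a coculture.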
